A study of Caenorhabditis elegans with 16 samples.

Results

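Intraflagellar transport carries cargo along the axoneme of a cilium, and the genes described here encode its complex A and its motors in *C. elegans*. They were selected by gene symbol. They are the 4 complex A (IFT-A) genes *che-11*, *daf-10*, *dyf-2* and *ifta-1*, the ciliary kinesin gene *osm-3*, the 3 kinesin-II genes *klp-11*, *klp-20* and *kap-1*, and the 2 dynein-2 genes *che-3* and *xbx-1*. All 10 were found among the 23758 genes of the RNA-seq tables. RNA was sequenced from whole animals of 4 genotypes, with 4 biological replicates of each, on day 1 of adulthood at 20 °C, to ask how overexpression of the heat shock transcription factor gene *hsf-1* and loss of the ubiquilin gene *ubql-1* alter the transcriptome alone and together.

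The groups were *hsf-1* OE; *ubql-1(tm1574)* animals, named the double strain here, *hsf-1* OE animals, *ubql-1(tm1574)* animals and wildtype (N2) animals. *hsf-1* OE is a single integrated array, uthIs235, that carries *hsf-1* under the promoter of *sur-5*, which is active in most somatic cells, with the *unc-54* 3′UTR, and a *myo-2* promoter tdTomato marker. *ubql-1(tm1574)* is a single deletion allele in the first exons of the gene, backcrossed to wildtype, that leaves a truncated mRNA at a reduced level. The double strain came from a cross of both strains. Each library was made from many pooled animals, none was sorted for ciliated cells, and all animals were raised on OP50 bacteria and synchronized by egg-laying.

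Cilia of *C. elegans* are found only at the dendrite endings of sensory neurons, which make up a small share of the cells of the animal. In those cilia, heterotrimeric kinesin-II (KLP-11, KLP-20 and the accessory subunit KAP-1) and the homodimeric kinesin OSM-3 move transport trains from the base along the middle segment, OSM-3 alone builds the distal segment, and dynein-2 (the heavy chain CHE-3 and the light intermediate chain XBX-1) returns the trains to the base. IFT-A links trains to dynein-2 and is needed for the return, whereas complex B (IFT-B) is needed for the outward journey. Mutants of many of these genes fail to fill with lipophilic dye, hence the names *dyf*, and fail in chemotaxis and osmotic avoidance, hence *che* and *osm*. The RFX transcription factor DAF-19 is known to drive many of these genes through X-box promoter motifs.

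Libraries held between 18202151 and 30524762 counts, with a median of 22241519. *ubql-1* mRNA was lower in *ubql-1(tm1574)* than in wildtype libraries (log2 fold change -1.18 ± 0.05 SE, adjusted p = 1.13e-05) and lower in the double strain than in *hsf-1* OE libraries (-1.49 ± 0.07, adjusted p = 1.84e-05). *hsf-1* mRNA averaged 1994 ± 368 normalized counts in libraries labelled *hsf-1* OE and 2412 ± 137 in wildtype libraries (SD, n = 4 each). Its log2 fold change was -0.13 (95% interval -0.39 to 0.13, adjusted p = 0.386). It was -0.34 (adjusted p = 0.0469) in DESeq2 and 0.24 (adjusted p = 0.188) with libraries scaled to 3 housekeeping genes. Its level thus does not bear out that label, and *hsf-1* OE means the libraries labelled so in what follows. *hsf-1* mRNA was higher by 0.31 ± 0.11 in the double strain than in *ubql-1(tm1574)* animals (adjusted p = 0.0322; 0.33, adjusted p = 0.0783, without replicate 1). Replicate 1 of both strains with the array stood apart in ciliary genes: its summed count over 13 transition zone genes was 980 in the double strain, against 352 to 466 in replicates 2 to 4, and 1978 in *hsf-1* OE, against 1190 to 1229. Where a call on one of the 10 transcripts was gained or lost without replicate 1 of every genotype, both values are given. A normalized count is a count scaled to a common library size, with 1 scaling over all 16 libraries. The 3 contrasts with wildtype or *hsf-1* OE that were fitted on 8 libraries had their own scaling, so printed counts and log2 fold changes need not match. In *hsf-1* OE vs wildtype, one fit of all 16 libraries moved the log2 fold change of the median gene by -0.14. A gene passed the test when its Benjamini-Hochberg adjusted p, over all genes of that comparison, was under 0.05.

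The level of a transcript, set per kilobase of exon and per 1e6 counts so that genes can be compared, was low for all 10. *klp-20* had the highest mean level of the 10 in wildtype animals, 6.27 ± 0.800, and the others ran from 1.56 ± 0.306 for *osm-3* down to 0.136 ± 0.0467 for *xbx-1* (SD, n = 4). *klp-11*, at 1.21 ± 0.0676, *ifta-1*, at 0.929 ± 0.206, and *kap-1*, at 0.794 ± 0.0647, made up the middle of that order. The range of *ifta-1* over the wildtype libraries overlapped those of both neighbours, although *klp-11* was above it in each of the 4 libraries. *dyf-2* (0.528 ± 0.0786), *daf-10* (0.194 ± 0.0383), *che-3* (0.190 ± 0.0391) and *che-11* (0.160 ± 0.0347) came after them, with *xbx-1* last. *daf-10*, *che-3* and *che-11* each overlapped the next gene in that order, and the ranges of *osm-3* and *klp-11* overlapped as well. In *hsf-1* OE animals the order was different at its top: *osm-3* led with 5.68 ± 0.545, *klp-20* had 4.22 ± 0.901 and *che-3* had 3.05 ± 0.431. In bulk RNA of whole animals, more or fewer cells of a type and more or less RNA per cell cannot be told apart.

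**Figure D1:**
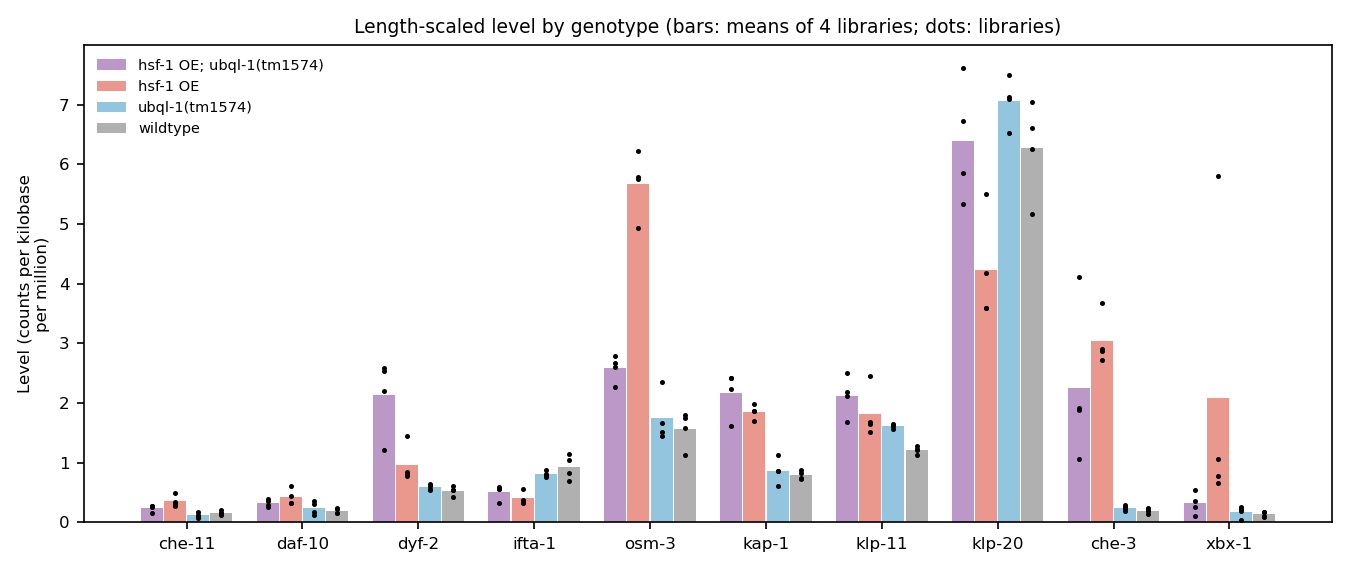
Level of each transcript in counts per kilobase of exon per 1e6 counts (linear vertical axis), with bars at the mean of 4 libraries and dots for the libraries of each genotype. *osm-3* and *che-3* are high in *hsf-1* OE, *klp-20* is the highest of the 10 in the other 3 genotypes, and 1 library of *hsf-1* OE sets most of the mean of *xbx-1*.

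*hsf-1* OE animals differed from wildtype animals in every one of the 10 transcripts. Of the 10, 8 were higher (*che-11*, *daf-10*, *dyf-2*, *osm-3*, *kap-1*, *klp-11*, *che-3* and *xbx-1*) and 2 were lower (*ifta-1* and *klp-20*, of which *klp-20* did not pass when libraries were scaled to 3 housekeeping genes). Over all 14794 genes tested, 38.6% passed as higher and 28.7% as lower, so most transcripts of the animal differed too. With an absolute log2 fold change over 1 required as well, 7 of the 10 passed (6 higher, 1 lower), against 26.2% of all genes. The median log2 fold change of the 10 was 1.29, beside 0.28 over all genes tested. All 10 passed the low-count filter, *xbx-1* only through the *hsf-1* OE libraries. Its call is thus bound to the group in which it was high, and so is its part in these counts and in the median.

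**Figure D2:**
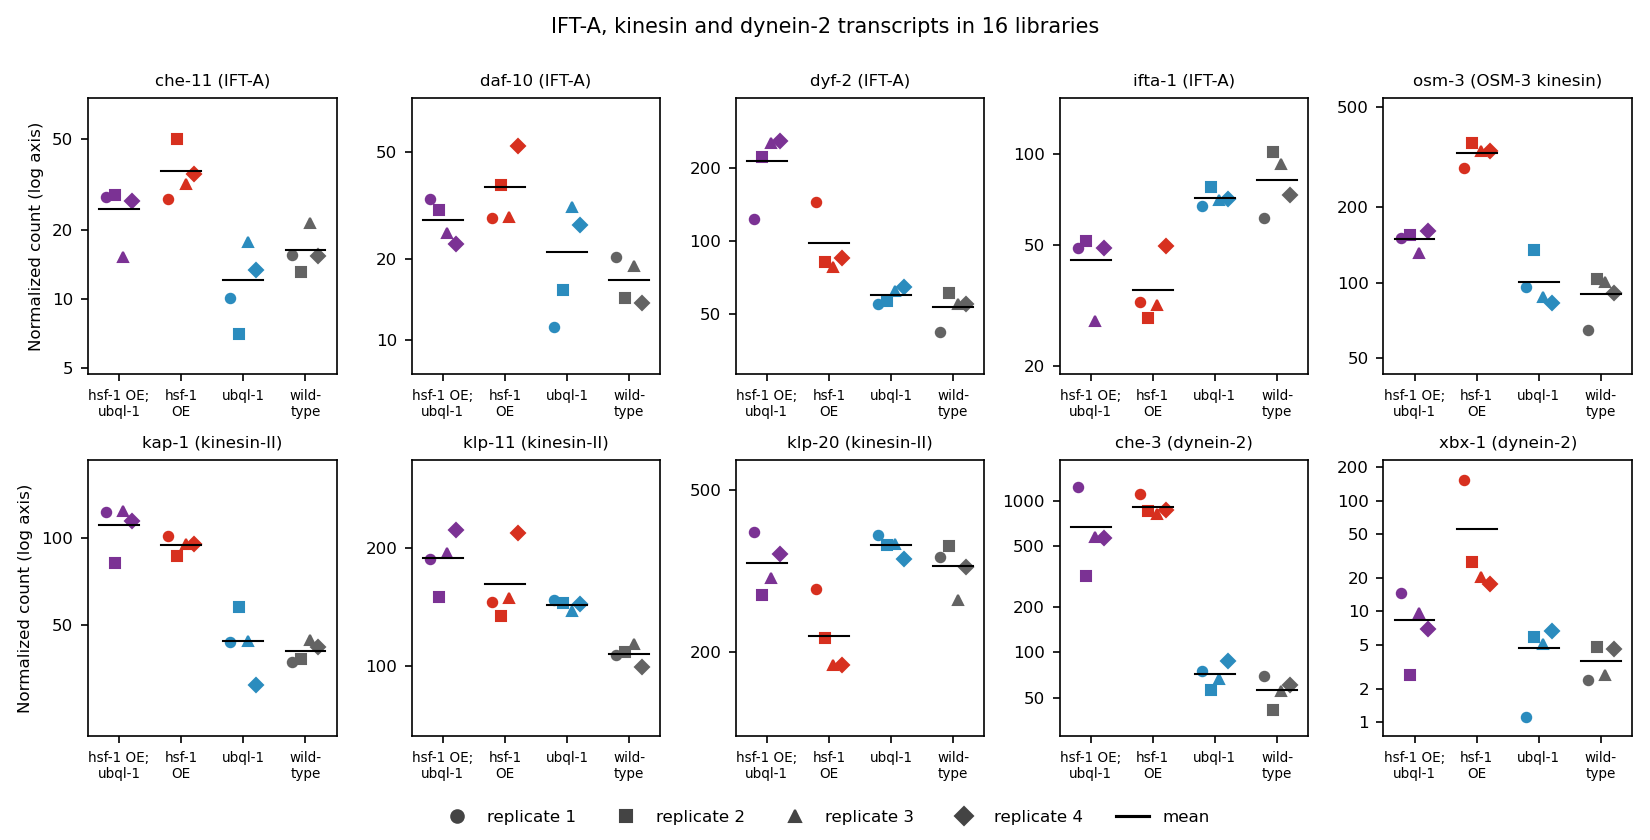
Normalized count of each transcript (log vertical axis) in the 16 libraries, with 4 genotypes side by side, a symbol for each replicate number and a line at the mean. *che-3* lies between 813 and 1099 in *hsf-1* OE and between 41.8 and 69.7 in wildtype libraries, whereas *ifta-1* and *klp-20* have their lowest means in *hsf-1* OE.

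Between *hsf-1* OE and wildtype animals the dynein-2 gene *che-3* had the largest log2 fold change of the 10. *che-3*, which encodes the dynein-2 heavy chain and lies on chromosome I (WBcel235, bases 8062011 to 8081671, minus strand, 48 exons), had 1099, 857, 813 and 867 normalized counts in replicates 1 to 4 of *hsf-1* OE, against 69.7, 41.8, 55.03 and 60.3 in wildtype. The lowest *hsf-1* OE library was thus far above the highest wildtype library. The log2 fold change was 4.13 ± 0.17 (SE), or 17.5-fold, with an adjusted p of 1.03e-06. Double strain libraries had 1229, 318, 571 and 563, spread more widely, with replicate 1 the highest and replicate 2 the lowest. *ubql-1(tm1574)* libraries had 75.1, 56.5, 66.2 and 87.2, close to wildtype. *che-3* was higher in the double strain than in *ubql-1(tm1574)* animals by 3.23 ± 0.32 on the log2 scale (adjusted p = 3e-06), and without replicate 1 by 2.82 (adjusted p = 1.62e-05). Between the double strain and *hsf-1* OE the libraries overlapped and the log2 fold change was -0.47 (95% interval -1.10 to 0.15, adjusted p = 0.633), which became -0.84 (adjusted p = 0.17) without replicate 1. The next gene downstream on the same strand, *F18C12.4*, 217 bases away, was also higher in *hsf-1* OE than in wildtype (2.91, adjusted p = 0.000455), and was named after its value was seen.

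*xbx-1*, which encodes the dynein-2 light intermediate chain (chromosome V, 14980354 to 14982626, plus strand, 7 exons), was the scarcest of the 10 in wildtype animals. *hsf-1* OE libraries had 156, 31, 20 and 18 raw counts, against 2, 4, 2 and 5 in wildtype libraries. Replicate 1 of *hsf-1* OE thus held more than the other 3 libraries of its group together, and all 4 exceeded every wildtype library. The log2 fold change was 3.93 (95% interval 2.32 to 5.53, adjusted p = 0.00245) and it was 2.40 without replicate 1 of both genotypes (adjusted p = 0.00146). The 4 libraries of the double strain had 13, 3, 12 and 10 counts and *ubql-1(tm1574)* libraries had 1, 5, 6 and 5. Every double strain library lay below every *hsf-1* OE library, with a log2 fold change of -2.70 (95% interval -4.19 to -1.20) that did not pass the test (adjusted p = 0.186; -1.78, adjusted p = 0.165, without replicate 1). *xbx-1* reached the minimum of the low-count filter in 2 of 4 double strain libraries and 4 of 4 *hsf-1* OE libraries, so it was tested here chiefly through the group in which it was high, and its calls carry that limit. Blocking on the replicate number made this difference pass (-2.33, adjusted p = 0.0312), and it also passed in one fit of all 16 libraries (-2.71, adjusted p = 0.0475). At counts this low, no difference of the double strain from *ubql-1(tm1574)* animals (0.81, 95% interval -0.80 to 2.42, adjusted p = 0.414; 0.18 without replicate 1) or from wildtype animals (1.14, adjusted p = 0.247; 0.63 without replicate 1) was detectable, and *xbx-1* failed the low-count filter in the fit of *ubql-1(tm1574)* against wildtype.

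Of the other dynein-2 subunit genes listed with the pathway, *wdr-60*, an intermediate chain gene, had 54.4 ± 10.7 normalized counts in *hsf-1* OE and 19.03 ± 8.86 in wildtype animals (SD, n = 4 each), a log2 fold change of 1.65 ± 0.33 (adjusted p = 0.00198). It was higher by 1.42 ± 0.28 in the double strain than in *ubql-1(tm1574)* animals (adjusted p = 0.00111). *dylt-2*, a light chain gene, had 2 counts in each of 3 of the 8 libraries with the array and 0 in every other library, and is given no fold.

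The ciliary kinesin gene *osm-3* (chromosome IV, 3795872 to 3800461, minus strand, up to 10 exons in a transcript) was the 1 transcript of the 10 whose difference between strains with and without the array was itself unequal, by test, in *ubql-1(tm1574)* and wildtype backgrounds. *hsf-1* OE libraries had 285, 360, 333 and 335 normalized counts, against 64.9, 103.8, 101 and 91.3 in wildtype. In the double strain the libraries had 151, 154, 131 and 161, and *ubql-1(tm1574)* libraries had 96.4, 135, 87.4 and 83.2. The *hsf-1* OE libraries stood above all 12 others, and the double strain libraries above all wildtype libraries, with 1 *ubql-1(tm1574)* library inside their range. *osm-3* was higher by 2.01 ± 0.19 in *hsf-1* OE than in wildtype (4.02-fold, adjusted p = 7.53e-05) and higher by 0.57 ± 0.17 in the double strain than in *ubql-1(tm1574)* (1.48-fold, adjusted p = 0.0124).

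Between double strain and *hsf-1* OE animals, the log2 fold change of *osm-3* was -1.17 ± 0.14, or 0.445 of the *hsf-1* OE level (adjusted p = 0.00543), with no overlap. It was the 1 transcript of the 10 that passed in that comparison, in which 0.463% of 15555 genes passed as lower, 0.469% as higher, and 0.611% passed with both thresholds. Blocking on the replicate number raised the number to 3 of the 10, with *klp-20* and *xbx-1* added, *xbx-1* with the limit of its filter given above. The shares above are those of the fit without the block, and no share was worked out for the fit with it. The median of the 10 was -0.13, beside -0.01 over all genes. *osm-3* was also the 1 of the 10 that passed the interaction of array and allele, which tests whether the array's difference is equal in both backgrounds (log2 -1.29 ± 0.24, adjusted p = 0.023). In the interaction 0.460% of 15645 genes passed as lower, 0.198% as higher and 0.550% with both thresholds. The call was lost when any of 4 libraries was left out (adjusted p up to 0.0598), with the log2 value between -1.37 and -1.12 over the 16 single omissions, and without replicate 1 of every genotype it was -1.27 (adjusted p = 0.0751). The libraries left out in these 4 cases were double strain replicates 2 and 3, *hsf-1* OE replicate 3 and wildtype replicate 1. *osm-3* overlaps *K09B3.1* on the other strand, a gene with an average of 4.55 normalized counts.

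**Figure D3:**
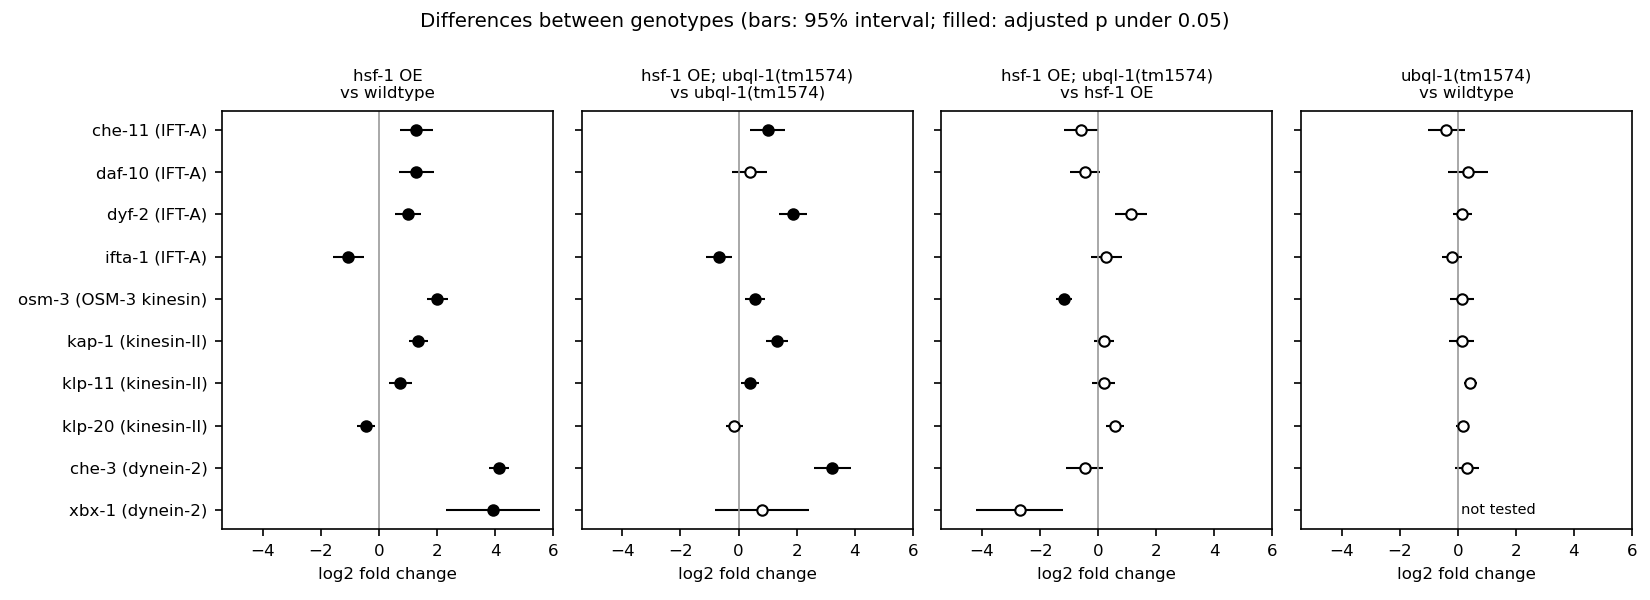
Log2 fold change of each transcript (horizontal axis) in 4 comparisons, with bars for the 95% interval by the normal approximation and filled points where the adjusted p was under 0.05. Filled points are 10 of 10 for *hsf-1* OE vs wildtype, 7 of 10 for the double strain vs *ubql-1(tm1574)*, 1 of 10 (*osm-3*) for the double strain vs *hsf-1* OE and 0 of 9 for *ubql-1(tm1574)* vs wildtype. In *hsf-1* OE vs wildtype, *xbx-1* was tested only through the *hsf-1* OE libraries, in which it was high.

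The kinesin-II genes did not differ in 1 direction. *kap-1*, which encodes the accessory subunit (chromosome III, 7339001 to 7343626, plus strand, up to 15 exons), had 101, 86.4, 95.5 and 94.9 normalized counts in *hsf-1* OE, against 37.3, 38.2, 44.3 and 42.01 in wildtype. Double strain libraries had 123, 82.1, 123 and 114, and *ubql-1(tm1574)* libraries had 43.7, 57.7, 44.1 and 30.9. Both genotypes with the array lay above both without it, with no overlap. The log2 fold change was 1.36 ± 0.17 in *hsf-1* OE vs wildtype (adjusted p = 0.000216) and 1.32 ± 0.19 in the double strain vs *ubql-1(tm1574)* (adjusted p = 0.0001). The interaction was 0.10 (95% interval -0.42 to 0.62, adjusted p = 0.87), and turned to -0.04 with that housekeeping scaling. The next gene downstream on the same strand, *F08F8.6*, 144 bases away and named after its value was seen, was higher by 2.54 in *hsf-1* OE than in wildtype (adjusted p = 0.000108).

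*klp-11*, which encodes a motor subunit of kinesin-II (chromosome IV, 8756532 to 8762057, minus strand, up to 14 exons), had 146, 134, 149 and 218 normalized counts in *hsf-1* OE, against 107.0, 109, 114 and 99.5 in wildtype. The 4 libraries of the double strain had 188, 150, 194 and 222.2, and *ubql-1(tm1574)* libraries had 147, 145, 138 and 144. The wildtype libraries were the 4 lowest of the 16. *klp-11* was higher by 0.74 ± 0.20 in *hsf-1* OE than in wildtype (adjusted p = 0.0097). It was higher by 0.40 ± 0.16 in the double strain than in *ubql-1(tm1574)* (adjusted p = 0.0436), a call that was lost without replicate 1 (0.43, adjusted p = 0.0954) and without the low-count filter (0.38, adjusted p = 0.102). It was also lost in 10 of the 16 single omissions (adjusted p up to 0.146), that is, for every library but the 4 of *hsf-1* OE and replicate 2 of the double strain and of wildtype. Between *ubql-1(tm1574)* and wildtype its log2 fold change of 0.42 ± 0.11 missed the threshold (adjusted p = 0.0515), passed once the replicate number was a block (0.42, adjusted p = 0.0331) and gave p = 0.029 in an exact permutation test, the smallest that 4 against 4 libraries allow.

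*klp-20*, which encodes the other motor subunit (chromosome III, 221416 to 228838, plus strand, up to 14 exons), had 285, 216, 186 and 186 normalized counts in *hsf-1* OE, against 341, 364, 267 and 323 in wildtype. The groups overlapped in 1 library, *hsf-1* OE replicate 1. The log2 fold change was -0.44 ± 0.16 (adjusted p = 0.0302). It was -0.09 (adjusted p = 0.581) with housekeeping scaling and -0.69 (adjusted p = 0.00884) without replicate 1, and its call was lost without *hsf-1* OE replicate 3 or wildtype replicates 1, 2 or 4 (adjusted p up to 0.0707). In the double strain the libraries had 393, 276, 303 and 347, and *ubql-1(tm1574)* libraries had 387, 366, 368 and 337, within or near the wildtype range. *klp-20* in the double strain against *hsf-1* OE gave 0.58 (95% interval 0.26 to 0.89, adjusted p = 0.174). It passed with the replicate number as a block (0.58, adjusted p = 0.0375) and in DESeq2 (0.58, adjusted p = 0.0348). Of 17 annotated exons of *klp-20*, 2 lie outside the span that was counted.

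Within each library, the per-kilobase level of *klp-20* relative to *klp-11* ran from 2.67 to 3.60 in the double strain, from 1.46 to 3.35 in *hsf-1* OE, from 4.03 to 4.57 in *ubql-1(tm1574)* and from 4.02 to 5.76 in wildtype. All 8 libraries with the array thus had a lower ratio than all 8 without it. *osm-3* relative to *klp-20* ran from 0.343 to 0.501 in the double strain, from 0.894 to 1.61 in *hsf-1* OE, from 0.212 to 0.331 in *ubql-1(tm1574)* and from 0.170 to 0.337 in wildtype. All 8 libraries with the array were higher in that ratio than all 8 without it, and *hsf-1* OE lay above the double strain with no overlap. These ratios do not depend on how libraries are scaled.

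The IFT-A genes divided into *che-11*, *daf-10* and *dyf-2*, which were higher in *hsf-1* OE, and *ifta-1*, which was lower. *dyf-2*, the orthologue of human IFT144, had 146, 81.9, 78.0 and 85.1 normalized counts in *hsf-1* OE, against 42.1, 60.8, 55.03 and 54.8 in wildtype. Double strain libraries had 123, 222.2, 256 and 260, and *ubql-1(tm1574)* libraries had 54.9, 56.5, 61.9 and 64.4. The double strain had the highest libraries, except that its replicate 1 lay below replicate 1 of *hsf-1* OE. *dyf-2* was higher by 1.0 ± 0.23 in *hsf-1* OE than in wildtype (adjusted p = 0.00388; 0.53, adjusted p = 0.0468, without replicate 1), and higher by 1.86 ± 0.24 in the double strain than in *ubql-1(tm1574)* (adjusted p = 5.3e-05).

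Set against *hsf-1* OE, *dyf-2* in the double strain gave 1.14 (95% interval 0.59 to 1.68, adjusted p = 0.118), which missed the threshold. With no library left out, it passed at 1.14 in DESeq2 (adjusted p = 0.00239) and at 1.14 in one fit of all 16 libraries (adjusted p = 0.0167). It also passed at 1.55 (adjusted p = 0.00502) without replicate 1 and at 1.35 (adjusted p = 0.0258) without replicate 1 of the double strain alone. The interaction of *dyf-2* was 0.98 ± 0.34 (adjusted p = 0.151) with all libraries and 1.05 (adjusted p = 0.0592) in DESeq2. It passed at 1.48 (adjusted p = 0.00955) without replicate 1 and at 1.24 (adjusted p = 0.0267) without *hsf-1* OE replicate 1. *dyf-2* was counted over bases 13674881 to 13679353 of chromosome III (minus strand) only. The Ensembl annotation of the same build extends the gene to 13686445, and 11 of its 21 exons lie outside the span that was counted.

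*che-11*, the orthologue of human IFT140 (chromosome V, 12144295 to 12150689, minus strand, 20 exons), had 27.6, 50.4, 31.8 and 35.2 normalized counts in *hsf-1* OE, against 15.6, 13.1, 21.5 and 15.5 in wildtype. The 4 libraries of the double strain had 27.9, 28.55, 15.3 and 27.0, and *ubql-1(tm1574)* libraries had 10.1, 7.07, 17.8 and 13.4. *hsf-1* OE lay above wildtype in every library, while replicate 3 of the double strain fell among the *ubql-1(tm1574)* libraries. *che-11* was higher by 1.29 ± 0.29 in *hsf-1* OE than in wildtype (adjusted p = 0.0036) and by 1.0 ± 0.31 in the double strain than in *ubql-1(tm1574)* (adjusted p = 0.0148). The second call was lost without replicate 1 (0.88, adjusted p = 0.0718) or without *ubql-1(tm1574)* replicate 2 alone (0.81, adjusted p = 0.0538).

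*daf-10*, the orthologue of human IFT122 (chromosome IV, 9136933 to 9146210, minus strand, 19 exons), had 28.55, 37.8, 28.7 and 52.8 normalized counts in *hsf-1* OE, against 20.4, 14.3, 18.8 and 13.7 in wildtype. The log2 fold change was 1.29 ± 0.31 (adjusted p = 0.00493). In the double strain the libraries had 33.5, 30.3, 25.0 and 22.8, and *ubql-1(tm1574)* libraries had 11.2, 15.3, 31.4 and 26.8, so those genotypes overlapped (log2 fold change 0.38, 95% interval -0.23 to 0.98, adjusted p = 0.312; 0.09 without replicate 1). The neuropeptide gene *flp-1* overlaps *daf-10* on the other strand, averaged 388 normalized counts over all libraries and was higher by 0.49 in *hsf-1* OE than in wildtype (adjusted p = 0.0284). The sources do not say that counting used strand, and without it reads of the shared bases cannot be assigned to one of the genes.

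*ifta-1*, the orthologue of human IFT121 (chromosome X, 5545687 to 5552756, minus strand, 27 exons), was lower in both genotypes with the array. It had 32.5, 28.8, 31.8 and 49.9 normalized counts in *hsf-1* OE, against 61.3, 101, 92.6 and 73.1 in wildtype. Double strain libraries had 49.1, 51.8, 28.2 and 49.1, and *ubql-1(tm1574)* libraries had 67.3, 77.7, 70.4 and 71.1. No library with the array reached the level of any library without it. The log2 fold change was -1.05 ± 0.26 in *hsf-1* OE vs wildtype (adjusted p = 0.00648) and -0.69 ± 0.23 in the double strain vs *ubql-1(tm1574)* (adjusted p = 0.0197). The second was -0.34 (adjusted p = 0.215) with housekeeping scaling and lost its call without double strain replicate 3 (-0.52, adjusted p = 0.0674) or *ubql-1(tm1574)* replicate 2 (-0.65, adjusted p = 0.0502).

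The remaining IFT-A genes also differed from each other. *ift-139* had 48.2, 43.2, 40.0 and 20.5 normalized counts in *hsf-1* OE, against 13.2, 7.16, 18.8 and 10.96 in wildtype, a log2 fold change of 1.73 ± 0.35 (adjusted p = 0.00211). *ift-43*, the most abundant IFT-A gene per kilobase, had 12.9 ± 1.6 counts per kilobase per 1e6 counts in *hsf-1* OE and 16.6 ± 1.41 in wildtype animals (SD, n = 4 each). Its log2 fold change was -0.23 ± 0.13 (adjusted p = 0.155), which became -0.42 (adjusted p = 0.0227) in DESeq2 and 0.13 with housekeeping scaling. Of the 6 IFT-A genes, 4 thus passed as higher in *hsf-1* OE and 1, *ifta-1*, as lower, where 38.6% of all genes passed as higher and 28.7% as lower.

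Between the double strain and *ubql-1(tm1574)* animals, 6 of the 10 transcripts were higher (*che-11*, *dyf-2*, *osm-3*, *kap-1*, *klp-11* and *che-3*) and 1 was lower (*ifta-1*), while 23.8% of all 15645 genes passed as higher and 29.4% as lower. With both thresholds 3 passed (*dyf-2*, *kap-1* and *che-3*), against 13.0% of all genes. The median of the 10 was 0.69, beside 0.07 over all genes. The number that passed was 4 in place of 7 without *ubql-1(tm1574)* replicate 2. With housekeeping scaling 6 passed as higher and 0 as lower. That scaling put the median of all genes at 0.42, against 0.07 in the main fit, so the shares above do not apply to its counts. *klp-20* gave -0.15 (95% interval -0.44 to 0.15, adjusted p = 0.419) and 0.20 with housekeeping scaling.

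Between the double strain and wildtype animals, 5 of the 10 were higher and 1 was lower, against 36.7% and 32.6% of all genes, and 3 passed with both thresholds, against 24.3%. The log2 fold changes of those that passed were 2.02 ± 0.25 for *dyf-2*, 0.73 ± 0.17 for *osm-3*, 1.45 ± 0.19 for *kap-1*, 0.82 ± 0.16 for *klp-11*, 3.56 ± 0.33 for *che-3* and -0.88 ± 0.23 for *ifta-1*, with adjusted p of 0.00279 or less. With housekeeping scaling 8 passed as higher and 0 as lower, and *ifta-1* missed the threshold (-0.48, adjusted p = 0.0768). That scaling put the median of all genes at 0.59, against 0.18 in the main fit, so the shares above do not apply to its counts. *klp-20* gave 0.02 (95% interval -0.27 to 0.32, adjusted p = 0.894), which passed as higher with housekeeping scaling (0.43, adjusted p = 0.00864) and turned to -0.05 when libraries were scaled by relative log expression.

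By edgeR 0 of the 9 transcripts tested passed between *ubql-1(tm1574)* and wildtype animals, 1 of the 9 had an unadjusted p under 0.05 (*klp-11*), and DESeq2 passed that same gene (adjusted p = 0.0453). Over all 14183 genes 4.19% passed as higher, 4.12% as lower and 2.41% with both thresholds. The intervals still allowed sizeable differences for the scarce genes, from -1.04 to 0.24 for *che-11* and from -0.34 to 1.05 for *daf-10*.

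The same contrasts were made for other genes of the cilium, with lists chosen by function. Of 13 IFT-B genes 11 were tested between *hsf-1* OE and wildtype, and 5 were higher and 0 lower, with a median log2 fold change of 0.72. That count is near the share of all genes that passed as higher in this comparison (38.6%). They were *ift-74* (4.90 ± 0.20), *dyf-3* (2.95 ± 0.14), *osm-6* (2.59 ± 0.32), *che-13* (2.32 ± 0.24), each with an adjusted p of 0.000213 or less, and *osm-5* (1.37 ± 0.42, adjusted p = 0.0162), which was named after its value was seen. *osm-6* failed the low-count filter between *ubql-1(tm1574)* and wildtype, so it was tested chiefly through *hsf-1* OE, in which it was high. All 5 encode subunits of the complex. Of these, *ift-74* and *che-13* were lower in the double strain than in *hsf-1* OE (-2.25 ± 0.39, adjusted p = 0.031, and -1.41 ± 0.19, adjusted p = 0.0101). *dyf-3* (-2.50 ± 0.41, adjusted p = 0.0126) and *che-13* (-1.87 ± 0.29, adjusted p = 0.00936) passed the interaction, beside *osm-3* among the motors. With the replicate number as a block, 3 IFT-B genes in place of 2 passed as lower in the double strain against *hsf-1* OE, and 3 in place of 2 passed the interaction. Without replicate 1 the *che-13* interaction was -1.76 (adjusted p = 0.0599). *dyf-3* was also the 1 IFT-B gene that was higher in *ubql-1(tm1574)* than in wildtype animals (1.56 ± 0.32, adjusted p = 0.0314, and 1.75, adjusted p = 0.104, without replicate 1).

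The transition zone is the gate at the base of the cilium. Of 13 of its genes 7 were tested and 6 were higher in *hsf-1* OE than in wildtype, against 38.6% of all genes, with a median of 1.70. Only 3 of the 13 passed the low-count filter between *ubql-1(tm1574)* and wildtype. *mks-5*, *nphp-1* and *tmem-107* were not among them, so they were tested chiefly through the *hsf-1* OE libraries. Their calls, and with them the count and median of the list, are bound to the group in which they were high. *tmem-107*, named after its value was seen, lost its call without replicate 1 (0.86, adjusted p = 0.0779), which left 5, and in DESeq2 (0.97, adjusted p = 0.131). Those higher included *mks-5* (6.44 ± 0.30, adjusted p = 1.99e-06), *nphp-4* (5.59 ± 0.30, adjusted p = 3.79e-06), *nphp-1* (2.69 ± 0.30, adjusted p = 0.000147) and *mks-1* (1.70 ± 0.28, adjusted p = 0.000677). *daf-19*, the RFX factor, was higher by 1.28 ± 0.12 (adjusted p = 8.99e-05), and *dyf-5*, a kinase gene that limits cilium length and regulates kinesin use, by 4.65 ± 0.17 (adjusted p = 7.16e-07). Both were lower in the double strain than in *hsf-1* OE, with log2 fold changes of -1.70 ± 0.20 (adjusted p = 0.00529) for *daf-19* and -2.73 ± 0.46 (adjusted p = 0.0277) for *dyf-5*. *daf-19* also passed the interaction (-1.48 ± 0.27, adjusted p = 0.0214), where 2 regulator genes in place of 1 passed with the replicate block. It was lower in the double strain than in wildtype animals (-0.53 ± 0.19, adjusted p = 0.0235), a call that was lost with housekeeping scaling, under which 0 of 3 regulator genes passed as lower. Of 9 BBSome and ciliary GTPase genes 5 were tested and 2 were higher, of which *bbs-5* passed both thresholds (1.82 ± 0.24, adjusted p = 0.000281). Of 4 ciliary tubulin genes 1 was tested, and it was higher.

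Of 7 genes for other kinesins and cytoplasmic dynein 6 were tested between *hsf-1* OE and wildtype, with a median log2 fold change of -0.15. Over all genes of that comparison 38.6% passed as higher and 28.7% as lower. The kinesin light chain gene *klc-2* was higher (0.59 ± 0.16, adjusted p = 0.00918), and the cytoplasmic dynein genes *dhc-1* (-0.23 ± 0.09, adjusted p = 0.0372), *dli-1* (-0.32 ± 0.07, adjusted p = 0.00254) and *dyci-1* (-0.26 ± 0.06, adjusted p = 0.00526) were lower, where housekeeping scaling left 3 genes higher, 0 lower and a median of 0.21. These 4 were named after their values were seen. *klp-6*, a kinesin gene of ciliated neurons that release extracellular vesicles, was higher by 3.0 ± 0.43 in the double strain than in *ubql-1(tm1574)* animals (adjusted p = 0.000117). It failed the low-count filter in *hsf-1* OE and in *ubql-1(tm1574)* against wildtype, so it was tested chiefly through the double strain, in which it was high.

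**Figure D4:**
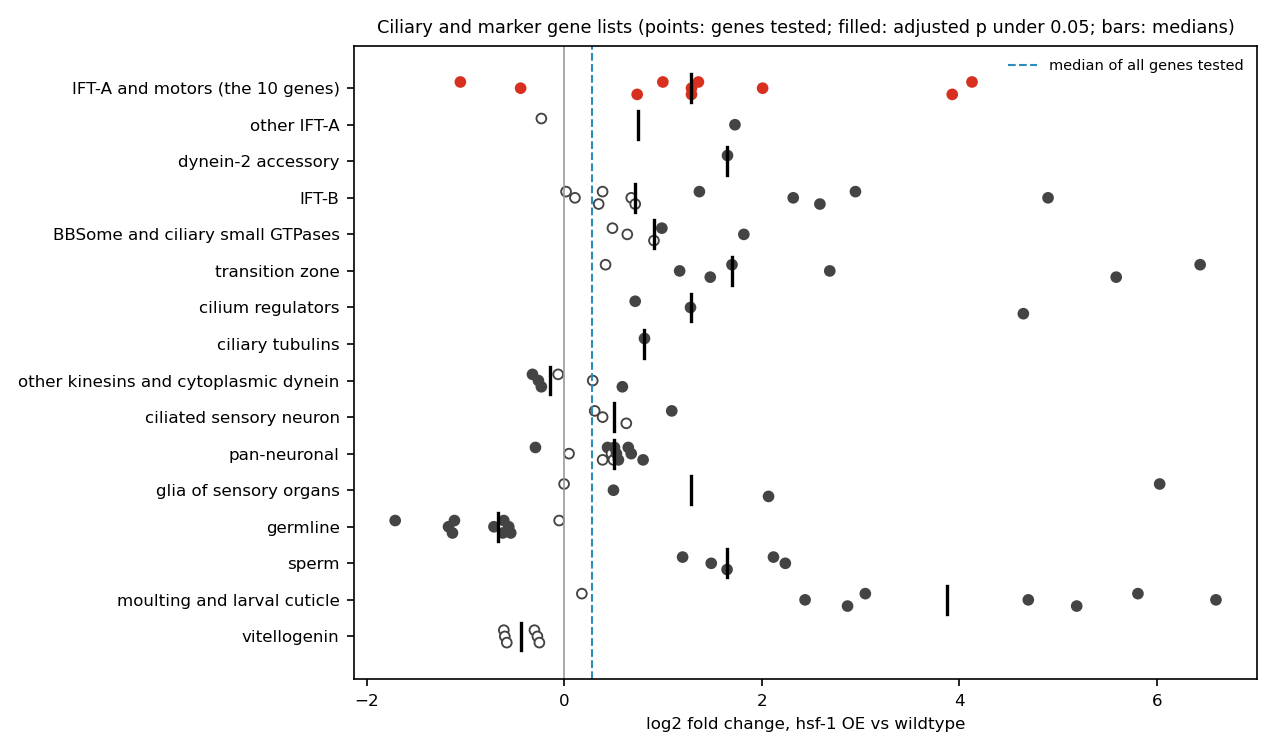
Log2 fold change between *hsf-1* OE and wildtype (horizontal axis) of the 10 transcripts and of the genes of 15 other lists that were tested, filled where the adjusted p was under 0.05, with a bar at each list's median and a dashed line at the median of all genes (0.28). The 10 have a median of 1.29, the transition zone list 1.70, the moulting list 3.88 and the germline list -0.67. The transition zone median leans on genes tested chiefly through *hsf-1* OE libraries, and the 10 include *xbx-1*, tested only through them.

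Marker lists of other cells and tissues were read between *hsf-1* OE and wildtype, where 38.6% of all genes passed as higher and 28.7% as lower. Of 12 pan-neuronal genes 7 were higher and 1 lower (median 0.50; 8 higher and 1 lower with the replicate block, and 11 higher and 0 lower with housekeeping scaling), and their summed level ran from 9998 to 12370 normalized counts in *hsf-1* OE and from 9901 to 11120 in wildtype libraries. Of 8 genes of ciliated sensory neurons outside the cilium machinery 4 were tested and *ocr-2* was higher (1.09 ± 0.23, adjusted p = 0.00278). Their summed level ran from 145 to 167 in *hsf-1* OE and from 78.1 to 136 in wildtype, and none of the 8 was at 0 in all libraries of a genotype. Of 4 genes of the glia of sensory organs 3 were higher (median 1.28; 2 higher without replicate 1), with *ptr-10* at 6.03 ± 0.44 (adjusted p = 2.39e-05). *ptr-10* failed the low-count filter between *ubql-1(tm1574)* and wildtype, so it was tested chiefly through *hsf-1* OE, in which it was high. The summed level of the 4 glia genes was 567 to 748 in *hsf-1* OE and 358 to 423 in wildtype.

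Of 10 germline genes 9 were lower (median -0.67, and 8 lower and 1 higher with housekeeping scaling), with summed levels from 40860 to 61930 in *hsf-1* OE and from 89250 to 111300 in wildtype libraries. Beside this count and those below, 38.6% of all genes passed as higher and 28.7% as lower. Of 5 sperm genes 5 were higher (median 1.65; 4 without replicate 1, *peel-1* being lost at 1.29, adjusted p = 0.058), with 5191 to 6998 in *hsf-1* OE against 1262 to 3238 in wildtype. Of 8 genes of moulting and the larval cuticle 7 were higher (median 3.88; 6 with the replicate block, *mlt-10* being lost at 1.94, adjusted p = 0.0858), with 1398 to 13690 in *hsf-1* OE against 897 to 1090 in wildtype, and none was at 0 in all libraries of a genotype. Replicate 1 of *hsf-1* OE and of the double strain, which had the highest *che-3* and *xbx-1*, had the lowest moulting sums of their groups, 1398 and 2396. Of 6 vitellogenin genes 0 passed in either direction (median -0.44), whereas blocking on the replicate number made all 6 pass as lower (median -0.57). *peel-1* and *mlt-10* were named after their values were seen. The part of these differences in those of the transport genes was not tested.

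Across the 16 libraries, which share genotypes and replicate numbers, the log2 normalized counts of the 10 were not uniform. Pearson's r was highest for *kap-1* and *che-3* (0.92) and for *osm-3* and *che-3* (0.82), and lowest for *ifta-1* and *che-3* (-0.87). Among the IFT-A genes *che-11* and *daf-10* went together (0.78), whereas *dyf-2* followed *kap-1* (0.80) more than *che-11* (0.41). The kinesin-II genes *kap-1* and *klp-11* had an r of 0.76, and *klp-11* and *klp-20* one of -0.17. *ifta-1* and *klp-20* had an r of 0.53.

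The genes most like the mean profile of the 10, by Pearson's r over 16 libraries among 11937 genes whose average was no less than 50 normalized counts, were *R10F2.6*, *pmk-2*, *tub-2* and *sea-2* (0.96 each), and *trak-1*, *tbx-2*, *D2045.7*, *skr-4*, *cls-1* and *unc-14* (0.95 each). An r of at least 0.9 was reached by 210 genes, or 1.76% of the candidates, so a high likeness was common. Of the 7 transcripts that reached that average, *che-3* (0.94) and *kap-1* (0.92) were nearest to the profile, which they helped to make, and *ifta-1* (-0.73) and *klp-20* (-0.41) ran against it.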

How the data were processed

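Poly-A RNA of 16 libraries was sequenced in read pairs. Per the labels, the authors aligned reads with HISAT2 2.0.5 to WBcel235 and counted them per gene with featureCounts 1.5.0-p3; the annotation release and strand setting are not given in the sources used here. The authors deposited raw counts in 3 tables of 8 libraries, which were used as deposited. The tables also hold the authors' fold changes and p-values and 48 further columns of values per library, none used. Joined tables gave 23758 genes, of which 23180 were named by locus tag; 17372 cells (4.57%) listed in no table were set to 0.

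The test was edgeR 4.0.16 (quasi-likelihood, TMM, filterByExpr, two-sided, R 4.3.3) with Benjamini-Hochberg adjustment over all genes tested. *hsf-1* OE and *ubql-1(tm1574)* against wildtype, and the double strain against *hsf-1* OE, were fitted on the 8 libraries of their table, and the other contrasts on all 16. Intervals are 95% by the normal approximation. The fit was tested on simulated data. Exact permutation tests used log2(normalized count + 1) in scipy 1.17.1. Levels per kilobase used the deposited exon lengths. DESeq2 1.42.0, other scalings, no filter, a replicate block and omitted libraries were tried; leaving out replicate 1 of every genotype was chosen after seeing the data.

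Same-numbered libraries deviated together in all 6 pairs of genotypes. The lowest r was 0.106 to 0.392 over 15645 genes. Other numbers had means of -0.158 to -0.064. Deviations were taken from each group's own mean, which forces those means below 0 when same-numbered r is above 0, so they are no separate comparison. The main tests and the permutation tests did not pair libraries, so their p-values take no account of the deviations that same-numbered libraries shared. The replicate block was a separate setting. Its value is given where it changes a call on the 10 or a list's count that the text prints. The transcripts and lists were chosen with earlier results of these data known. Beyond all 10 transcripts and every other IFT-A and dynein-2 gene listed, genes named are those past both thresholds, at most 4 per list by size, those marked in the text as named after their values were seen, overlapping or adjacent genes, and the 10 most alike in profile.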

Additional observations from a re-analysis of the deposited data

Results flagged for a closer look

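The effect of *hsf-1* OE on *osm-3* differed between *ubql-1(tm1574)* and wildtype backgrounds by -1.29 on the log2 scale (adjusted p = 0.023 in edgeR), the 1 of 10 transcripts for which that difference passed. Of the 40 groups of 4 libraries, 1 in 20 of which chance would single out, 4 held a library far from the other 3 by Dixon's ratio. *xbx-1* had 153.6 normalized counts in *hsf-1* OE replicate 1, and *dyf-2* had 145.7 in the same library. In replicate 3 of the double strain, *che-11* had 15.33 and *ifta-1* had 28.24, each the lowest of its group.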

How the results depend on the processing

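Scaling to housekeeping genes moved the log2 fold change of the median gene by 0.36 in *hsf-1* OE vs wildtype, by 0.35 in the double strain vs *ubql-1(tm1574)* and by 0.41 in the double strain vs wildtype, and relative log expression moved the first by -0.17. Of 322 values of single transcripts under settings that kept all libraries, 302 kept their direction and side of the threshold and 5 reversed, none of them called: *klp-20* in the double strain at 0.20 vs *ubql-1(tm1574)* (housekeeping) and, vs wildtype, at -0.05 (relative log expression), -0.06 (DESeq2) and -0.04 (no filter), and the *kap-1* interaction at -0.04 (housekeeping). The number of the 10 that passed between *ubql-1(tm1574)* and wildtype was 1 in DESeq2 and 1 with the replicate block, against 0. Between the double strain and *hsf-1* OE it was 3 in DESeq2 (*osm-3*, *dyf-2* and *klp-20*), 3 with the replicate block and 3 in one fit of all 16 libraries, against 1, and with both thresholds 2, 2 and 3. Between the double strain and wildtype 6 passed both thresholds with housekeeping scaling, against 3. Shares of all genes that passed were worked out for the main fits only. Counts under any other setting have no share beside them. The replicate block changed no other call of the 10.

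Of 771 values with libraries left out, 726 kept direction and side and 11 reversed, none of them called. With libraries left out, 1 to 2 of the 10 passed in the double strain vs *hsf-1* OE (also with both thresholds), 4 to 7 in the double strain vs *ubql-1(tm1574)*, and 0 to 2 in the interaction (also with both thresholds). Signs were mixed for *klp-20* in the double strain vs wildtype (-0.07 to 0.13), for *osm-3* and *kap-1* in *ubql-1(tm1574)* vs wildtype (-0.02 to 0.24 and -0.02 to 0.26), and for the interactions of *che-11* (-0.39 to 0.13) and *kap-1* (-0.03 to 0.25). The causes were not tested. Raw counts from 1 to 156 per library for *xbx-1*, 6 to 56 for *che-11* and 10 to 54 for *daf-10* limit the precision of those genes.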
